A study of Mus musculus with 2 samples.

Results

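The genes described here are 10 that make or carry amino acids, out of 32285 genes counted in dendritic cells (DC) of the mouse spleen. They were taken by symbol, with earlier results of these data known, and form 3 groups. Phgdh, Psat1 and Psph encode the enzymes of serine synthesis, and Shmt2 and Mthfd2 encode mitochondrial enzymes that take one-carbon units from serine. Asns encodes asparagine synthetase. Slc3a2, Slc7a5, Slc7a11 and Slc1a5 encode amino acid transporters of the plasma membrane.

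The data were 2 single-cell RNA-seq libraries from naive female mice, whose age the labels give as 4 months (the study's methods give a younger range for its mice in general), on the C57BL/6J background. The WT library (H2-Aa +/+) held 7814 cells and 51020804 unique molecular identifiers (UMIs, 1 per captured RNA molecule). The H2-Aa cit/cit library held 11525 cells and 72652201 UMIs. The citation (cit) allele is an ENU-induced germline mutation of the gene for the MHC class II alpha chain, so it was present in every cell of those mice and not in DC alone. Each library pooled the spleens of 3 mice, and the cells were enriched with CD11c beads and then sorted as live CD45.2+ CD11c+ cells. With 1 library per genotype there was no replicate, so no test of a difference was possible. The 95% intervals given below cover counting error only, and a difference between the genotypes cannot be told apart from a difference between the libraries.

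Serine is made from an intermediate of glycolysis in 3 steps. PHGDH, the first enzyme, oxidises 3-phosphoglycerate, PSAT1 adds an amino group taken from glutamate, and PSPH removes the phosphate. SHMT2 then splits serine into glycine and a one-carbon unit carried on folate, and MTHFD2 oxidises that unit toward formate, which is used to make purines. ASNS makes asparagine from aspartate with nitrogen from glutamine. SLC3A2 (CD98 heavy chain) does not carry amino acids itself but pairs with a light chain: with SLC7A5 (LAT1) it brings in leucine and other large neutral amino acids, and with SLC7A11 (xCT) it takes up cystine in exchange for glutamate. SLC1A5 (ASCT2) exchanges neutral amino acids such as glutamine. In many cell types these genes are known targets of ATF4, the transcription factor of the integrated stress response, which binds composite C/EBP-ATF elements.

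On GRCm38, with GENCODE vM21 annotation, the genes lie on 7 chromosomes. Phgdh (ENSMUSG00000053398) lies at chr3:98313170-98339990 on the minus strand, Psat1 (ENSMUSG00000024640) at chr19:15904678-15947337 on the minus strand and Psph (ENSMUSG00000029446) at chr5:129765558-129787449 on the minus strand. Shmt2 (ENSMUSG00000025403) lies at chr10:127517123-127522444 and Mthfd2 (ENSMUSG00000005667) at chr6:83305691-83325908, both on the minus strand. Asns (ENSMUSG00000029752) lies at chr6:7675169-7693254 on the minus strand. Among the transporters, Slc3a2 (ENSMUSG00000010095) lies at chr19:8706882-8723369, Slc7a5 (ENSMUSG00000040010) at chr8:121881150-121907694 and Slc7a11 (ENSMUSG00000027737) at chr3:49892526-50443614, all on the minus strand, whereas Slc1a5 (ENSMUSG00000001918) lies at chr7:16781340-16798274 on the plus strand. Psph overlaps a transcript of Cct6a, Shmt2 overlaps Ndufa4l2 and Slc7a5 overlaps the gene model Gm20388, each on the opposite strand. Gene models and pseudogenes also overlap Psat1 (Gm3329, opposite strand), Mthfd2 (Gm43890, same strand) and Slc7a11, where Gm37692 and Gm37498 are on the same strand and 3 more on the other. Phgdh has a pseudogene elsewhere in the genome. How reads shared with these were assigned is not given in the sources used here.

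The promoter sequences are shown where they hold the C/EBP-ATF letters TGATGNAA, which were searched on both strands in the RefSeq windows of 300 bases around each gene's RefSeq start (GRCm38.p6). These starts were not always those of the GENCODE bounds given above. The windows of Psat1 (up to chr19:15925309), Mthfd2 (up to chr6:83317854) and Slc3a2 (up to chr19:8714147) lay inside those bounds and away from the GENCODE start. Of the 10 genes, 8 had a window (Psat1 had 2), Slc7a5 and Slc1a5 having no entry, and 2 of the 8 genes held the motif there, Asns and Slc7a11. Over all windows the motif was found in 1304 of 32851 (3.97%). The Asns stretch is chr6:7693214-7693243 and the Slc7a11 stretch is chr3:50443651-50443680, both printed 5′ to 3′ on the minus strand that the genes use, with the motif in capitals.
Asns: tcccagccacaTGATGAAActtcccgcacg
Slc7a11: cTGATGCAAacctggagaatTTGCATCAtc
The first motif base lay 23 bases before the RefSeq start of Asns. By the GENCODE bounds given above, which reach chr6:7693254, the Asns stretch lay inside the gene and after its start. In Slc7a11 there was 1 match on each strand, with first bases 66 and 47 bases before the start. The windows of the other 6 genes (Phgdh, Psat1, Psph, Shmt2, Mthfd2 and Slc3a2) held no such letters, which says nothing of sites elsewhere in those genes. Among the 6446 genes with a window that were tested in resting cDC1 as described below, 178 (2.76%) held the motif. It was held by 24 of the 403 (5.96%) that were at least 1.5-fold higher in H2-Aa cit/cit. Of the 339 that were at least 1.5-fold lower, 13 (3.83%) held it. These genes were called from the same data, Asns among the higher ones, and the difference between the shares was not tested.

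Cells were placed in 16 classes by UMIs of marker genes. Type 1 conventional DC (cDC1, the DC subset specialised in cross-presentation) were cells with at least 2 UMIs of Xcr1 and Clec9a together, namely 858 WT and 928 mutant cells. They were split into mature cDC1 (at least 3 UMIs of Ccr7, Fscn1 and Ccl22), proliferating cDC1 (at least 3 UMIs of Mki67, Top2a, Pclaf and Birc5) and the rest, called resting cDC1, of which there were 654 and 808. Outside cDC1, the classes used most were resting cDC2 (at least 2 UMIs of Ccr2 and Mgl2, or of Ffar2, Clec4a4 and Esam, 1800 and 4041 cells) and mature DC (1732 and 1214 cells). Plasmacytoid DC (pDC) were gated on Siglech without Cx3cr1, B cells on B-lineage markers, macrophages on C1qa, C1qb and C1qc, and monocyte-like cells on Ace, Fabp4 and Cd300e, whereas cells that passed no gate are called ungated. Where a pair of values is given without names, WT comes first. A level is the UMIs of a gene scaled to 1000000 UMIs of its class (CPM), and levels are compared between classes and libraries, not between genes.

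The cDC1 gate was checked with 5 cDC1 genes it did not use. Irf8, a transcription factor that cDC1 require, was at 1275 CPM (WT) and 1355 CPM (H2-Aa cit/cit) in resting cDC1, against 28.7 and 29.5 CPM in resting cDC2. Cadm1, an adhesion molecule of cDC1, was at 1028 and 650 CPM against 17.4 and 11.1 CPM, and Tlr3 at 124 and 123 CPM against 6.02 and 6.05 CPM. Wdfy4 and Batf3 were less restricted, at 2122 and 1604 CPM and at 202 and 199 CPM in resting cDC1, against 1397 and 1155 CPM and 165 and 156 CPM in resting cDC2. The gated cells were not pure by their markers. Of the resting cDC1, 255 WT cells (39.0%) and 378 cells of the other genotype (46.8%) also passed the gate of another lineage. The 4 pDC markers checked were lower in the resting cDC1 of the H2-Aa cit/cit library, Ly6d at 174 against 49.4 CPM, Ccr9 at 165 against 61.5 CPM, Tcf4 at 439 against 280 CPM and Bst2 at 402 against 294 CPM. The cDC2 markers in resting cDC1 were at 88.5 and 61.8 CPM for Sirpa, 20.8 and 17.9 CPM for Irf4, 104 and 79.0 CPM for Cd209a and 134 and 182 CPM for Clec12a. WT resting cDC1 had a median depth of 10372 UMIs per cell, those of H2-Aa cit/cit one of 12656. The part of these differences in the results below was not tested beyond the restrictions given there. The libraries shared 31 cell barcodes. The level of the mutated gene, H2-Aa, was 6964 and 47.9 CPM in resting cDC1, and 6930 and 79.7 CPM in resting cDC2.

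**Figure D1:**
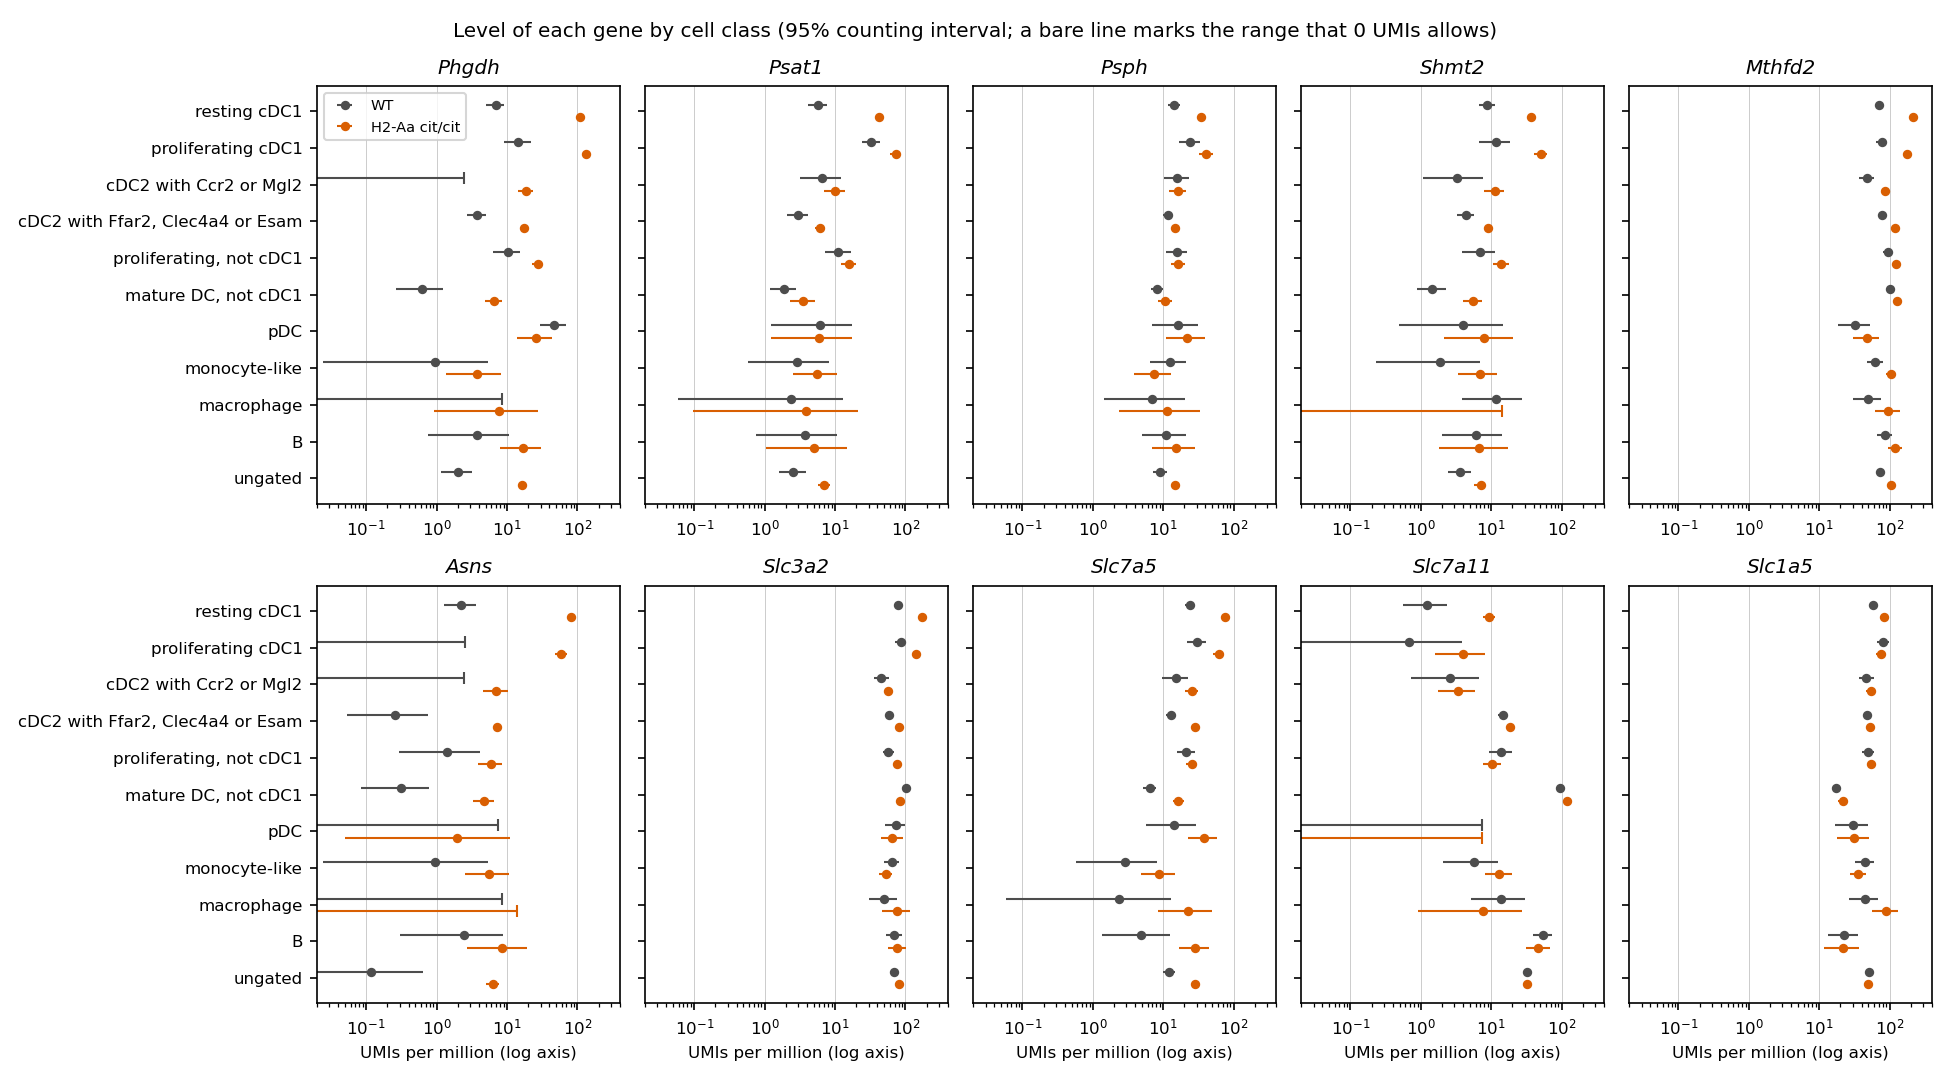
Level of each of the 10 genes (CPM of the class, log axis) in the 11 classes with at least 50 cells in each library, WT in gray and H2-Aa cit/cit in orange; points are levels, lines their 95% counting intervals, and a line without a point is the range that 0 UMIs allows. The orange points of resting and proliferating cDC1 stand to the right in most panels, whereas Slc7a11 is highest in mature DC outside cDC1, at 96.5 and 119 CPM.

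The first comparison was that of the genotypes within resting cDC1. All 3 serine synthesis enzymes and both one-carbon enzymes had higher levels in the H2-Aa cit/cit library than in the WT library, with fold differences between 2.44 for Psph and 15.9 for Phgdh. Asns stood furthest apart, at 37.4-fold. Slc3a2, Slc7a5 and Slc7a11 were also higher, and Slc1a5 was 1.40-fold higher. A gene was called when it differed by at least 1.5-fold and passed a minimum of 10 CPM on average and 30 UMIs in the sums compared. Of the 10 genes, 9 passed the minimum and 8 of those were called higher and 0 lower. Over all 8050 genes that passed, 6.41% were called higher and 5.79% lower. The median log2 ratio was 1.69 for the 9 genes and -0.04 for all genes. Phgdh, Psat1, Shmt2 and Asns were under 10 CPM in the WT library and passed the minimum only through their level in H2-Aa cit/cit, so the count is a description and not support. The same holds below wherever a gene called higher or lower had under 10 CPM in the lower of the sums compared.

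Phgdh, the enzyme of the committed step, was counted 50 times in the 654 WT cells and 1151 times in the 808 H2-Aa cit/cit cells. These are 6.87 CPM (interval 5.10 to 9.06) and 109 CPM (103 to 116), a log2 ratio of 3.99 (3.58 to 4.43). Of the 8050 genes that passed the minimum, 10 had a larger ratio, which is a description and not support. Psat1, the second enzyme, went from 42 to 439 UMIs, or 5.77 and 41.7 CPM, a log2 ratio of 2.85 (2.39 to 3.35). Psph, the last enzyme, differed less, with 103 and 364 UMIs, 14.2 and 34.6 CPM and a log2 ratio of 1.29 (0.97 to 1.62). The 3 intervals did not overlap, so the size of the difference fell in the order of the pathway's steps in this class taken whole. Within bands of depth, Phgdh and Psat1 overlapped in cells of 5000 to 10000 UMIs and in those above 20000 UMIs. Psat1 and Psph overlapped in cells of 5000 to 10000 UMIs.

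Shmt2, which takes the one-carbon unit from serine, had 64 and 387 UMIs in resting cDC1. The levels of 8.80 and 36.8 CPM gave a log2 ratio of 2.06 (1.68 to 2.47). Mthfd2, the next mitochondrial enzyme, was counted 519 and 2228 times, at 71.3 and 212 CPM, a log2 ratio of 1.57 (1.43 to 1.71). Both ratios exceeded 1.5-fold over their whole interval.

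Asns had 16 UMIs in the WT resting cDC1 and 866 in the H2-Aa cit/cit resting cDC1. The levels were 2.20 CPM (1.26 to 3.57) and 82.3 CPM (76.9 to 88.0). The log2 ratio of 5.23 (4.52 to 6.04) ranked 4 among the 8050 genes that passed the minimum, again a description. The enzyme was thus close to undetected in one library and plainly counted in the other.

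Among the transporters, the CD98 heavy chain Slc3a2 had 568 and 1837 UMIs, at 78.1 and 175 CPM, a log2 ratio of 1.16 (1.02 to 1.30). Its LAT1 partner Slc7a5 had 173 and 809 UMIs, at 23.8 and 76.9 CPM, a log2 ratio of 1.69 (1.45 to 1.94). Its xCT partner Slc7a11 was sparse, with 9 WT and 98 H2-Aa cit/cit UMIs. The 1.24 and 9.31 CPM of Slc7a11 gave a log2 ratio of 2.91 (1.93 to 4.08), but the gene did not reach the minimum, and the ratio moved between 0.63 and 5.39 over the other settings tried. Slc1a5, the glutamine exchanger, had 425 and 862 UMIs, at 58.4 and 81.9 CPM. Its log2 ratio of 0.49 (0.32 to 0.66) lay above 0 over its whole interval but below the 1.5-fold mark.

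**Figure D2:**
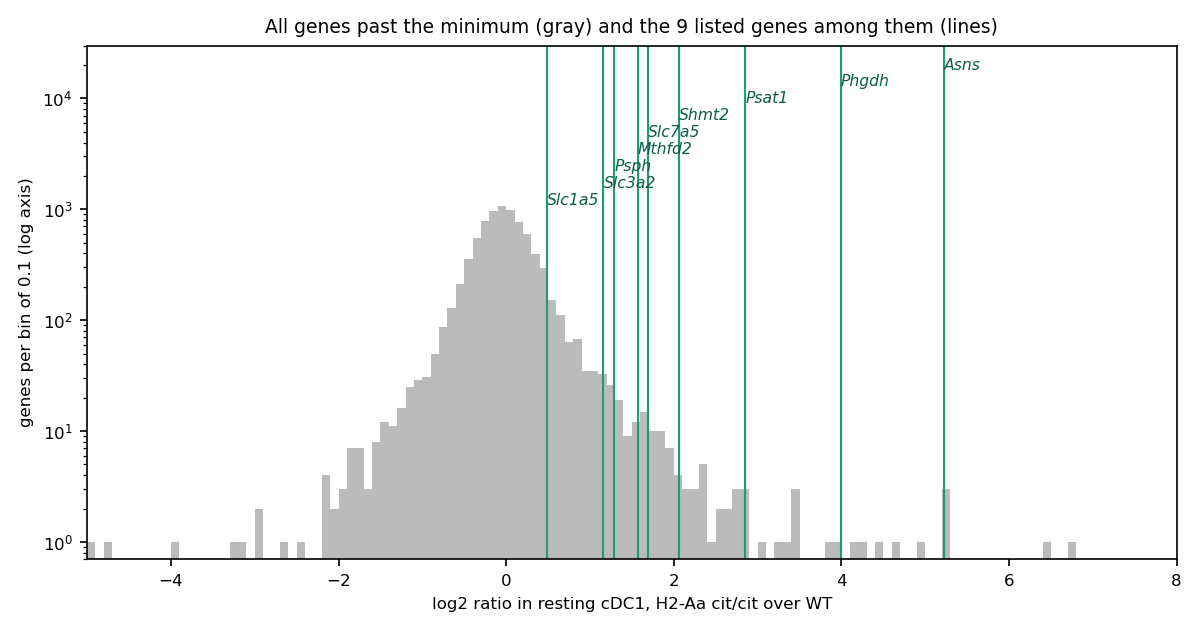
Number of genes (log axis) per bin of the log2 ratio of H2-Aa cit/cit over WT in resting cDC1, for genes past the minimum, in gray, with green lines at the 9 listed genes among them; genes with a log2 ratio outside -5 to 8 are not drawn. Slc1a5 lies on the shoulder of the distribution at 0.49, the others lie at 1.16 or above, and Phgdh and Asns lie in its sparse right tail at 3.99 and 5.23.

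Proliferating cDC1 (83 and 89 cells) were compared in the same way, from the same 2 libraries. Of these cells, 45.8% (WT) and 56.2% (H2-Aa cit/cit) also passed the gate of another lineage. Of 9 genes that passed the minimum there, 8 were called higher and 0 lower, against 9.98% and 6.61% of all 8203 genes. Asns went from 0 to 106 UMIs (59.4 CPM), at least 28.7-fold higher when 3 UMIs are set for the WT sum. Phgdh was at 14.5 and 134 CPM, a log2 ratio of 3.22 (2.57 to 3.93), and Shmt2 at 11.7 and 51.0 CPM, a log2 ratio of 2.12 (1.36 to 2.96). The remaining called genes had smaller ratios. Mthfd2 stood at 1.22, Psat1 at 1.17, Slc7a5 at 1.02, Psph at 0.76 and Slc3a2 at 0.73 on the log2 scale. Slc1a5 did not differ beyond its interval, at 80.6 and 75.6 CPM with a log2 ratio of -0.09 (-0.46 to 0.28). Slc7a11 had 1 and 7 UMIs, a log2 ratio of 2.51 (-0.45 to 8.0). Most of these calls did not hold when gates were read on thinned cells, which left 15 and 16 cells and 2 called genes, with log2 ratios of 0.43 for Psat1, 0.40 for Psph, 0.11 for Slc7a5 and 0.05 for Slc3a2.

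Within the WT library, Psat1 was higher in proliferating than in resting cDC1, at 32.4 against 5.77 CPM, a log2 ratio of 2.49 (1.86 to 3.12). For H2-Aa cit/cit cells the corresponding levels of Psat1 were 72.8 and 41.7 CPM, a log2 ratio of 0.80. Phgdh was at 14.5 CPM in proliferating and 6.87 CPM in resting WT cDC1, and at 134 and 109 CPM in H2-Aa cit/cit. Mature cDC1 were few, 121 and 31 cells. In them Phgdh was at 2.16 and 96.5 CPM, Slc1a5 at 16.8 and 76.9 CPM, Slc7a11 at 23.8 and 30.8 CPM, and Asns at 0 and 35 UMIs.

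In resting cDC2 the differences between the libraries went the same way but were mostly smaller. Of 7 genes that passed the minimum, Phgdh, Mthfd2 and Slc7a5 were called higher and 0 genes lower, against 2.09% of all 8311 genes called higher and 1.96% lower. Phgdh had 44 and 501 UMIs, 3.31 and 17.8 CPM, and a log2 ratio of 2.43 (1.98 to 2.91). Among the 8311 genes past the minimum, 5 ranked above it, a description since Phgdh passed only through H2-Aa cit/cit. Genes below the minimum, Asns among them, were not ranked. Slc7a5 was at 13.3 and 28.1 CPM, a log2 ratio of 1.08 (0.84 to 1.32). Mthfd2 was at 74.5 and 116 CPM, a log2 ratio of 0.64 (0.53 to 0.74), and its ratio dropped to 0.36, below the 1.5-fold mark, when gates were read on cells thinned to equal depth. Slc3a2 (0.45), Slc7a11 (0.31), Psph (0.29) and Slc1a5 (0.12) were not called. Below the minimum, Asns had 3 and 203 UMIs, a log2 ratio of 5.0 (3.43 to 7.29), Shmt2 had a log2 ratio of 1.14 (0.72 to 1.58) and Psat1 one of 0.97 (0.49 to 1.47).

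The 2 kinds of cDC2 could be compared for the sparse genes. In cDC2 with Ccr2 or Mgl2 (149 and 418 cells), Phgdh went from 0 to 67 UMIs, at least 9.44-fold, and Asns from 0 to 25 UMIs, at least 3.52-fold. In cDC2 with Ffar2, Clec4a4 or Esam (1651 and 3623 cells), Phgdh was at 3.74 and 17.7 CPM and Asns at 0.25 and 7.26 CPM. In the H2-Aa cit/cit library the levels of both genes overlapped within their intervals between the 2 kinds.

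The interval of the genotype ratio in resting cDC1 lay above that in resting cDC2 for 9 of the 10 genes, Asns being the exception, and below it for 0. For genes tested in both classes the same held for 9.42% of 7636, and for 11.9% the cDC1 interval lay below. Among the 6 listed genes tested in both classes (Phgdh, Psph, Mthfd2, Slc3a2, Slc7a5 and Slc1a5), the number was 6. Phgdh passed the minimum in both classes only through its level in H2-Aa cit/cit, so this number is a description and not support. The 9 genes include Psat1, Shmt2 and Slc7a11, which were not tested in both classes. Resting cDC2 were shallower, at median depths of 7386 and 6725 UMIs. In cells of 5000 to 10000 UMIs, the cDC1 and cDC2 intervals were apart for Phgdh (3.83 and 1.82). They overlapped for Mthfd2 (0.62 and 0.57), Slc3a2 (0.51 and 0.38), Slc7a5, Psph and Slc1a5. In that band they also overlapped for Psat1, Shmt2 and Slc7a11. At 10000 to 20000 UMIs they were apart for Psph, Mthfd2 (1.86 and 0.74) and Slc3a2. They were also apart there for Slc7a11, which had 3 UMIs in WT resting cDC1 of that band. There they overlapped for Phgdh (4.08 and 4.09), Slc7a5 and Slc1a5. The intervals of Psat1 and Shmt2 overlapped in this band as well. The part of depth was not tested. How much free RNA added to the counts of each class was not tested. In the H2-Aa cit/cit library Phgdh was at 109 CPM in resting cDC1 and 17.8 CPM in resting cDC2, and Asns at 82.3 and 7.22 CPM. Of the cDC1 genes checked above, Cadm1 was the most restricted to cDC1 there, at 650 and 11.1 CPM. Irf8 and Tlr3 came next, and Wdfy4 and Batf3 were far less restricted.

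**Figure D3:**
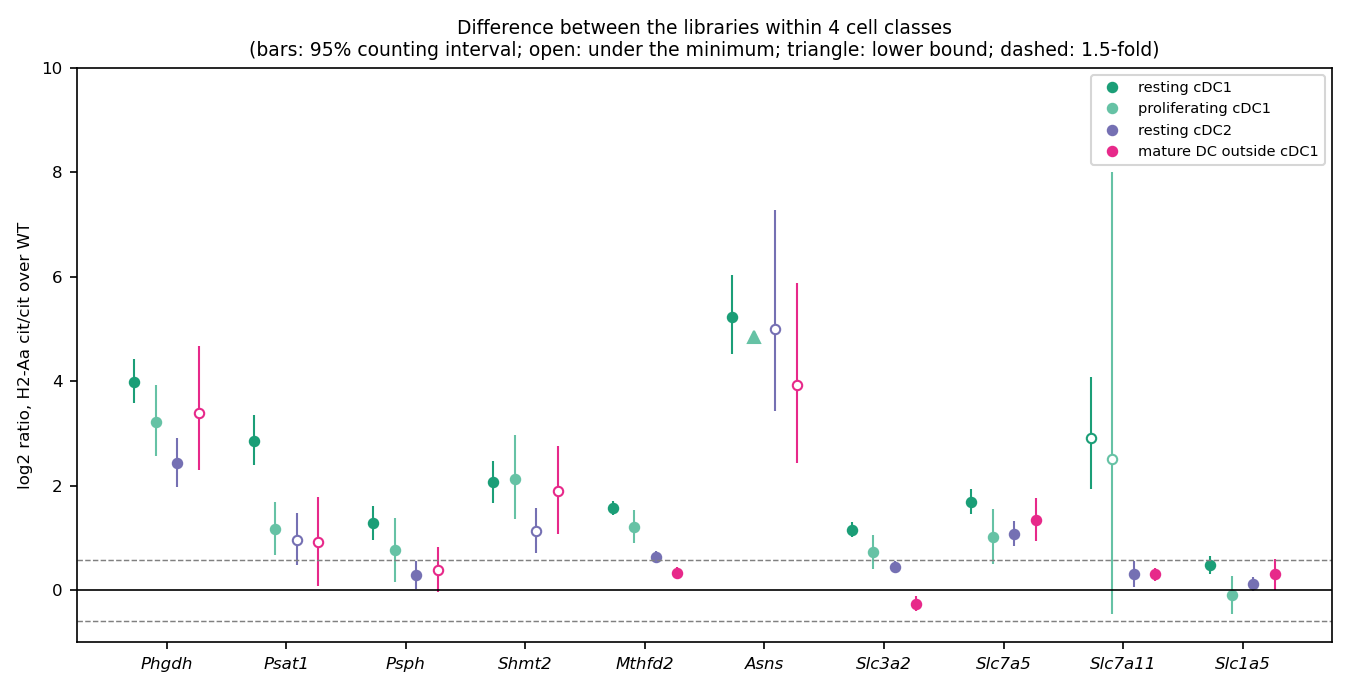
Log2 ratio of H2-Aa cit/cit over WT for each gene in 4 cell classes; lines are 95% counting intervals, open circles mark genes under the minimum, the triangle is a lower bound where the WT sum was 0, and dashed lines mark 1.5-fold. The resting cDC1 point lies above the resting cDC2 point for every gene, though for Asns the intervals overlap (5.23 and 5.0), and Slc3a2 in mature DC lies below 0 at -0.26.

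In mature DC outside cDC1, Slc7a5 alone was called among 5 genes that passed the minimum, at 6.48 and 16.5 CPM, a log2 ratio of 1.35 (0.94 to 1.76), and 0 were called lower. The background there was 6.63% higher and 4.61% lower of 8180 genes. Slc3a2 was lower in H2-Aa cit/cit, at 102 against 85.0 CPM, a log2 ratio of -0.26 (-0.39 to -0.12) that did not reach 1.5-fold. Mthfd2 (0.33), Slc7a11 (0.31) and Slc1a5 (0.30) were slightly higher. The enzymes below the minimum had higher levels as well, Phgdh with 8 and 50 UMIs and a log2 ratio of 3.40 (2.31 to 4.68), Asns with 4 and 36 UMIs and 3.92 (2.44 to 5.87), and Shmt2 with 19 and 42 UMIs and 1.90 (1.08 to 2.76). Psat1, with 24 and 27 UMIs, had a log2 ratio of 0.92 (0.07 to 1.78). Psph, at 8.10 and 10.7 CPM, had an interval that included 0.

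The same genes were also counted in ungated cells, B cells and pDC. In the ungated cells, Phgdh was at 1.98 and 16.1 CPM, Asns had 1 and 96 UMIs, and Slc7a5 was at 12.2 and 28.6 CPM. B cells had Slc7a5 at 4.93 and 28.4 CPM, a log2 ratio of 2.53 (0.91 to 4.56) from 4 and 17 UMIs. Of the cells gated as B cells, 47.7% and 54.5% also passed the gate of another lineage. The level of Phgdh in pDC went the other way, 46.2 CPM (23 UMIs) in WT and 25.7 CPM (13 UMIs) in H2-Aa cit/cit, with an interval of the log2 ratio from -1.95 to 0.20.

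The second comparison set cDC1 against all other cells within each library. In the WT library, among the 6 genes that passed the minimum, Slc7a5 was called higher in cDC1, at 22.4 against 10.7 CPM (log2 ratio 1.07, 0.84 to 1.30), and Slc7a11 lower. In the H2-Aa cit/cit library all 10 passed, 9 were called higher in cDC1 and Slc7a11 was again called lower. The minimum had a part in these counts, since Phgdh, Psat1, Shmt2 and Asns missed it in WT and Psat1, Shmt2 and Asns passed it in H2-Aa cit/cit only through their level in cDC1. Slc7a11 was under 10 CPM in cDC1 and passed the minimum in each library only through the other cells. Over all genes, 11.4% were called higher and 21.3% lower in WT (8521 genes), and 11.8% and 21.9% in H2-Aa cit/cit (8396 genes). The median log2 ratio of all genes was -0.15 in each library, and scaling by the median ratio instead of the total moved these shares to 17.8% and 14.5% in WT and to 16.7% and 16.2% in H2-Aa cit/cit. The cDC1 were deeper than the other cells, at median depths of 11443.5 and 13338.5 against 4993.5 and 5325 UMIs. In H2-Aa cit/cit cells of 5000 to 10000 UMIs, resting cDC1 and resting cDC2 differed by under 1.5-fold for Psph, Mthfd2, Slc3a2, Slc7a5 and Slc1a5. Mthfd2 was at 111 and 115 CPM there, but at 232 and 118 CPM in cells of 10000 to 20000 UMIs. Phgdh was at 53.1 and 16.5 CPM and Asns at 33.3 and 7.18 CPM in the shallower band. The part of depth was not tested.

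For the enzymes, the cDC1 level in the H2-Aa cit/cit library exceeded that of the other cells by a log2 ratio of 2.79 (2.67 to 2.91) for Phgdh, at 112 against 16.2 CPM. Psat1 stood at 46 against 7.01 CPM (2.71, 2.53 to 2.90) and Asns at 77.3 against 6.37 CPM (3.6, 3.43 to 3.78). Shmt2 (2.21), Psph (1.29) and Mthfd2 (0.86) followed. In the WT library, 4 of these enzymes were too sparse to be tested. Their levels were also higher in cDC1, Phgdh at 7.09 against 3.02 CPM, Psat1 at 9.27 against 3.16 CPM, Shmt2 at 7.94 against 3.41 CPM and Asns at 1.51 against 0.37 CPM, the last from 16 and 15 UMIs. The WT log2 ratio of Phgdh was 1.23 and dropped to 0.49, below the 1.5-fold mark, with cells of 2 or more lineages left out, and that of Psat1 dropped from 1.55 to 0.87 with mature and proliferating cells left out. In the WT library pDC had the highest Phgdh level and the pDC markers were higher in resting cDC1, and their part in the result was not tested. WT Mthfd2 did not differ, at 78.3 against 82.8 CPM with a log2 ratio of -0.08 (-0.19 to 0.03). WT Psph was at 14.8 against 10.5 CPM, a log2 ratio of 0.49 (0.22 to 0.76).

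For the transporters, Slc3a2 was at 87.2 CPM in WT cDC1 against 74.4 CPM in the other WT cells, and at 168 against 78.9 CPM in H2-Aa cit/cit. The log2 ratios of Slc3a2 were 0.23 (0.12 to 0.34) and 1.09. Those of Slc7a5 were 1.07 and 1.49, and those of Slc1a5 were 0.50 and 0.78. Slc7a11 was the exception to the group, at 5.11 against 44.7 CPM in WT, a log2 ratio of -3.13 (-3.55 to -2.74), and at 9.75 against 33.3 CPM in the other genotype, a log2 ratio of -1.77 (-2.04 to -1.51). The Slc7a11 ratio depended on the other cells, at -1.37 and -0.75 with resting cDC2 as the other side and at -4.07 and -1.21 with mature and proliferating cells left out.

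**Figure D4:**
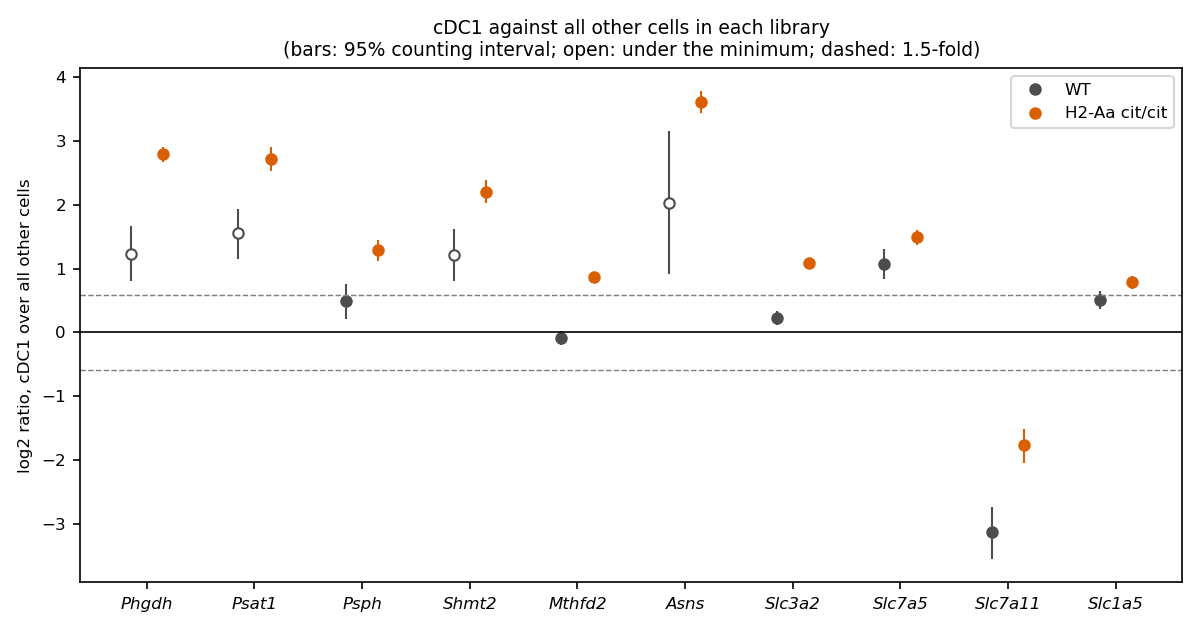
Log2 ratio of cDC1 over all other cells for each gene in the WT (gray) and H2-Aa cit/cit (orange) library; lines are 95% counting intervals, open circles mark genes under the minimum and dashed lines 1.5-fold. The orange point lies above the gray point for all 10 genes, and Slc7a11 lies below 0 in both libraries (-3.13 and -1.77).

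Slc7a11 was highest in mature DC. Its levels there, outside cDC1, were 96.5 and 119 CPM, against 13.2 and 16.4 CPM in resting cDC2, a log2 ratio of 2.87 in each library (2.64 to 3.10 and 2.70 to 3.03). The order of classes was led by mature DC, then B cells (54.2 and 46.8 CPM), ungated cells (32.6 and 32.3 CPM) and, among cDC2, those with Ffar2, Clec4a4 or Esam (14.6 and 18.3 CPM), above those with Ccr2 or Mgl2 (2.64 and 3.35 CPM). In pDC it had 0 UMIs in each library, with upper limits of 7.41 and 7.30 CPM. Its UMIs were concentrated, the tenth of mature DC with most of them holding 63.9% and 60.1% of the gene's UMIs, with up to 20 and 17 UMIs in a cell.

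The partners and the other transporter followed mature DC differently. Against resting cDC2, WT mature DC had Slc3a2 (log2 ratio 0.82) and Slc7a11 called higher and Psph (-0.61) and Slc1a5 (-1.47, -1.70 to -1.25) called lower, among 5 genes tested. In H2-Aa cit/cit, Slc7a11 alone was called higher, Phgdh (-1.46), Slc7a5 (-0.77) and Slc1a5 (-1.29) were called lower among 7 genes, and Slc3a2 stood at 0.12. Phgdh and Slc7a5 were below the minimum in WT, with log2 ratios of -2.42 (-3.72 to -1.32) and -1.04 (-1.43 to -0.66), so they were lower in mature DC in each library. Over all genes 17.4% were called higher and 29.2% lower in WT, and 15.6% and 20.7% in H2-Aa cit/cit, so counts of this size were common. Psph in WT and Phgdh in H2-Aa cit/cit were under 10 CPM in mature DC and passed the minimum only through resting cDC2. Slc1a5 was lowest in mature DC among the 11 classes in each library, at 17.4 and 21.4 CPM, though the intervals of B cells (22.2 and 21.7 CPM) overlapped these.

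The order of the 11 classes was led by cDC1 more often in the H2-Aa cit/cit library. There, resting and proliferating cDC1 held the highest 2 places for Phgdh, Psat1, Psph, Shmt2, Mthfd2, Asns, Slc3a2 and Slc7a5, though pDC overlapped their neighbour in the order for Psph and Slc7a5. In WT these classes held the highest 2 places for Slc7a5 (30.3 and 23.8 CPM) and Slc1a5 (80.6 and 58.4 CPM), though the next class overlapped resting cDC1. Proliferating cDC1 were first in WT for Psat1, Psph and Shmt2. For Psph (24.1 CPM) pDC at 16.1 CPM overlapped them, and for Shmt2 (11.7 CPM) macrophages at 11.7 CPM did. WT Phgdh was highest in pDC at 46.2 CPM (29.3 to 69.3), above proliferating cDC1 at 14.5 CPM (8.95 to 22.1). WT Mthfd2 and Slc3a2 were highest in mature DC outside cDC1 at 103 and 102 CPM, with neighbours in the order whose intervals overlapped. Mature cDC1, which had too few H2-Aa cit/cit cells to enter this order, were at 107 CPM for Mthfd2 and 124 CPM (109 to 142) for Slc3a2 in WT. Slc1a5 in H2-Aa cit/cit was at 87.6 CPM (55.6 to 131) in macrophages, 81.9 CPM in resting cDC1 and 75.6 CPM in proliferating cDC1, which overlapped.

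The difference in resting cDC1 was next followed into single cells. Each cell was thinned to 1500 UMIs so that cells of unequal depth could be compared, which left 648 WT and 802 H2-Aa cit/cit cells, 6 in each being shallower. Phgdh was found in 0 of 648 WT cells, which allows a share of up to 0.463% from 3 counts (exact upper limit 0.568%) of cells with a UMI at this depth, and in 96 of 802 H2-Aa cit/cit cells, 12.0% (9.80% to 14.4%, exact Clopper-Pearson interval). Before thinning the shares were 5.66% and 53.0%. Asns was found in 0.463% and 8.48% of thinned cells, against 1.53% and 46.4% before thinning. Mthfd2 was found in 9.57% and 25.2%, against 45.9% and 74.5% before thinning. The intervals of the 2 libraries did not overlap for these 3 genes. Psph was found in 3.09% and 3.12% of thinned cells, so its higher summed level (14.1% and 29.5% before thinning) was not visible in thinned shares.

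No class in the sort is known to lack these genes, so shares in other classes stand beside them. In monocyte-like cells of the H2-Aa cit/cit library (215 thinned cells, median depth 6281 UMIs before thinning), Phgdh and Asns were each found in 0, which allows up to 1.40% from 3 counts (exact upper limit 1.70%), and Mthfd2 in 14.0%. Before thinning, 1.85% of these cells had a UMI of Phgdh and 2.31% one of Asns. In resting cDC2 of that library Phgdh was found in 2.28%, Asns in 0.951% and Mthfd2 in 15.3% of thinned cells. Phgdh and Asns in mature DC were each in 0.749% of thinned H2-Aa cit/cit cells.

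Within H2-Aa cit/cit resting cDC1 the UMIs were spread over many cells. Of 808 cells, 178 (22.0%) had 5 or more UMIs of Mthfd2, 140 (17.3%) of Slc3a2, 63 (7.80%) of Phgdh and 30 (3.71%) of Asns. In the 654 WT cells the numbers were 11 for Mthfd2, 17 for Slc3a2, 1 for Phgdh and 0 for Asns. More of the genes were found per cell as well. The mean number of the 10 genes with a UMI in a thinned resting cDC1 was 0.35 against 0.97, and 3 or more were found in 3 (0.463%) against 71 (8.85%) cells. In resting cDC2 the means were 0.32 and 0.47, with 3 or more genes in 0.169% and 1.30% of cells.

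**Figure D5:**
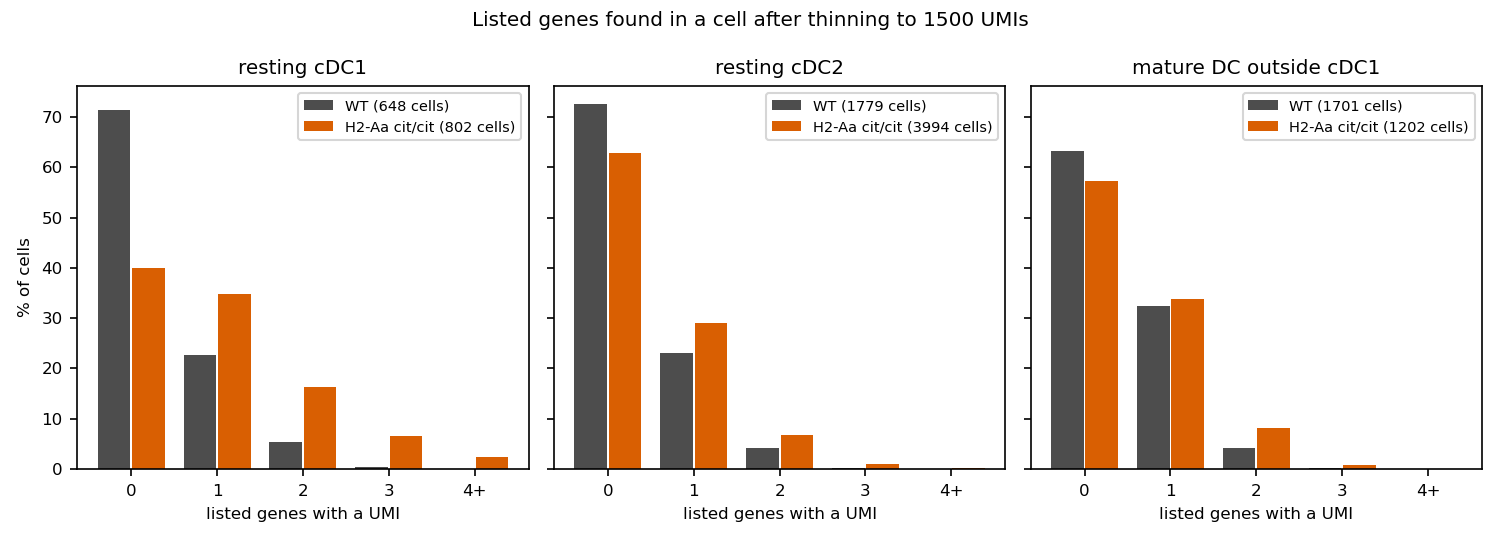
Share of cells (%) by how many of the 10 genes had a UMI after thinning to 1500 UMIs, for resting cDC1, resting cDC2 and mature DC outside cDC1, WT in gray and H2-Aa cit/cit in orange. In resting cDC1 the share with none was 71.5% for WT cells against 40.02% for H2-Aa cit/cit cells, and the libraries lie closer together in the other classes.

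Because the cells of H2-Aa cit/cit resting cDC1 were deeper, the ratios were recomputed within bands of depth. In resting cDC1 of 5000 to 10000 UMIs (183 and 202 cells) the log2 ratio of Phgdh was 3.83, in those of 10000 to 20000 UMIs (270 and 432 cells) it was 4.08, and in those above (71 and 103 cells) it was 3.5. Psat1 gave 2.18, 2.75 and 3.38 over the same bands, and Slc7a5 gave 1.48, 1.57 and 1.70. Asns had 0 and 52 UMIs in the first band and log2 ratios of 5.35 and 4.53 in the next ones. Mthfd2 and Slc3a2 gave 0.62 and 0.51 in the first band, 1.86 and 1.23 in the second and 1.50 and 1.06 in the third. Below 5000 UMIs (130 and 71 cells) Phgdh had 0 and 8 UMIs and Asns 0 and 7. For these 6 genes the direction was the same in the 3 upper bands, with the smallest ratios of Mthfd2 and Slc3a2 in cells of 5000 to 10000 UMIs. Psph and Shmt2 were higher in each of these bands as well, at 1.01 and 2.26 in the first. Slc7a11 was not, with 5 and 4 UMIs in the first band (log2 ratio -0.55, -2.88 to 1.67), and Slc1a5 had a log2 ratio of 0.09 (-0.23 to 0.41) in the deepest cells. With cells of 2 or more lineages left out, the log2 ratio of Phgdh was 5.11, that of Psat1 3.49 and that of Slc3a2 1.39, larger than with all cells.

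Other genes of these pathways were read from 4 lists in the same comparison of resting cDC1, with the 6.41% and 5.79% of all genes as background. Among 23 further genes of serine, glycine and one-carbon metabolism, 11 passed the minimum and 1 was called higher, Mthfd1l, the mitochondrial formate-producing enzyme, at 19.7 and 50.5 CPM (log2 ratio 1.36), and 0 lower. Their median log2 ratio was 0.15. The cytosolic counterpart Mthfd1, at 12.0 and 15.3 CPM, had a log2 ratio of 0.36 (-0.03 to 0.75). Aldh1l2, which oxidises the mitochondrial folate unit to carbon dioxide, was below the minimum with 2 and 117 UMIs, a log2 ratio of 5.34.

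Of 20 genes of aspartate, glutamine, proline, arginine and branched-chain amino acids, 13 passed the minimum, 4 were called higher and 3 lower, with a median of -0.13. The 4 were Aldh18a1 (1.90) and Oat (1.06), which act in proline and ornithine metabolism, Bcat2 (1.37), a branched-chain aminotransferase, and Got1 (1.18), which makes aspartate. The 3 were Ass1 (-1.27), the argininosuccinate synthase, Il4i1 (-0.90), an amino acid oxidase, and Glul (-0.65), the glutamine synthetase. Below the minimum, Bcat1 had 0 and 207 UMIs, at least 47.7-fold, and Gpt2 had 10 and 126 UMIs.

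Of 27 other amino acid transporters, 15 passed the minimum, 5 were called higher and 0 lower, with a median of -0.09. Slc1a4, a close relative of Slc1a5 that carries serine and alanine, had 6 and 222 UMIs, a log2 ratio of 4.68. Slc7a1, the cationic amino acid transporter, was at 30.2 and 103 CPM (1.77), and the glutamine transporter Slc38a2 at 87.6 and 171 CPM (0.97). Slc38a10 (0.83) and Slc38a7 (0.72) were the others, and Slc1a4 and Slc38a7 passed the minimum only through H2-Aa cit/cit. Slc6a9, a glycine transporter below the minimum, had 2 and 198 UMIs.

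Of 25 genes listed as regulators and ATF4 targets, 21 passed the minimum, 9 were called higher and 1 lower, with a median of 0.36. Atf5, Nupr1, Cebpb and Trib3 passed only through their level in H2-Aa cit/cit. This list also held Myc, Mycl, Nfe2l2, Gclc, Gclm, Txnrd1 and Srxn1, so its counts and median do not describe the ATF4 response alone. Atf4 itself was at 48.7 and 176 CPM, a log2 ratio of 1.86. Ddit3, which encodes CHOP, was at 10.2 and 147 CPM (3.85), Atf5 at 3.57 and 136 CPM (5.25), Nupr1 at 3.16 and 117 CPM (5.21), and Cebpb at 9.49 and 61.0 CPM (2.69). A further gene entry with the symbol Ddit3 was not used. Trib3, a pseudokinase induced by ATF4 and CHOP, had 3 and 381 UMIs, a log2 ratio of 6.46 (4.90 to 8.74). Sesn2 (1.67), Ddit4 (1.06) and Cebpg (0.81) were also called. The gene called lower was Gclc (-0.77), which starts glutathione synthesis from the cysteine that SLC7A11 supplies. In resting cDC2 this list had 19 genes past the minimum and 5 called higher, Atf5 (3.65), Nupr1 (2.93), Ddit3 (2.05), Ddit4 (0.95) and Atf4 (0.85), and 0 lower. The other lists, with 9, 12 and 12 genes past the minimum, had 0, 1 and 1 gene called higher in resting cDC2. These were Bcat2 (0.74) and Slc7a1 (0.74), and 1 gene was called lower, Il4i1 (-0.80). Over all genes in resting cDC2, 2.09% were called higher and 1.96% lower.

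Levels were last set side by side over the 22 combinations of 11 classes and 2 libraries, as log2(CPM + 5). These points share libraries and differ in depth, so the correlations are a description. Psat1 and Psph had the closest levels among the 10 genes (Pearson r 0.89), followed by Phgdh and Psph (0.86) and Psat1 and Shmt2 (0.85). Slc7a11 went against Slc1a5 (r -0.59) and against Psph (-0.50). Among 6714 genes at 20 CPM or more over these points, Phgdh was most like Trabd (r 0.91), Dnajc3 (0.89) and Ssr2 (0.89), and Mthfd2 most like Aars (0.88), Sel1l (0.83) and Edem1 (0.81). Slc3a2 was most like Erp44 (0.85) and Got2 (0.76), and Slc7a5 most like Trim27 (0.89), Sec31a (0.88) and Preb (0.86). Slc1a5 was most like Dars (0.91), Nol12 (0.88) and Tor1a (0.88). Slc7a11 had the closest matches, Agap1 (0.95), Lrrk1 (0.95) and Peak1 (0.94). Psat1, Psph, Shmt2 and Asns averaged under 20 CPM over the points, so no such genes are named for them.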

How the data were processed

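The libraries were 10x Genomics 3′ libraries. What the authors deposited is a matrix of whole UMI counts for each library, without normalization, from Cell Ranger 5.0.1 on the GRCm38 (mm10) genome. The annotation and the handling of introns are not given in the sources used here. The files held 7814 and 11525 barcodes, with at least 500 UMIs and 240 genes each, so the study's stated filter of 200 genes removes none. Its mitochondrial limit has no stated value, and no cell was removed here.

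Cells were gated on UMIs of marker genes, cDC1 first. Doublets were not removed; an alternative left out cells that passed the gates of 2 or more lineages. UMIs were summed per class and library and scaled to CPM. Levels carry exact Poisson intervals, ratios exact conditional binomial intervals and shares Clopper-Pearson intervals, all at 95%, for counting error only. Where one sum was 0, a bound was set with 3 UMIs. No p-value was computed, since each genotype was 1 library of 3 pooled mice and cells are not replicates. The computations were tested on simulated data. Cells were thinned to 1500 UMIs with a fixed seed for shares. All 10 genes were named in each main comparison, and genes of the 4 lists where they passed 1.5-fold; list genes below the minimum, and Mthfd1, were named after their values were seen. The 10 genes and the lists were chosen with earlier results of these data known. Alternatives changed the scaling, gates, minimum, fold, depth, mitochondrial limit and weighting of cells; those with cells of 5000 to 20000 UMIs alone, and with at least 5 UMIs of Xcr1 and Clec9a, were chosen after seeing the data. A gene of one gate and one of the genes with similar levels are not reported here. Positions came from GENCODE and promoters from RefSeq. Python 3.11.15, numpy 2.4.6, scipy 1.17.1, pandas 2.3.3 and matplotlib 3.10.9 were used.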

Additional observations from a re-analysis of the deposited data

Results flagged for a closer look

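The summed level of Slc3a2 differed between the libraries in opposite directions in 2 cell classes. Its log2 ratio of H2-Aa cit/cit over WT was 1.16 in resting cDC1 and -0.26 in mature DC outside cDC1, with counting intervals on either side of 0. Over the other settings the ratio in mature DC lay between -0.42 and -0.15. Thinned to 1500 UMIs, 11.5% (9.99% to 13.1%) of WT and 12.1% (10.4% to 14.1%) of H2-Aa cit/cit mature DC had a UMI of Slc3a2. The lower level was thus not visible in thinned shares, which do not count the UMIs in a cell. Before thinning, 50 of 1732 WT mature DC (2.89%) and 6 of 1214 H2-Aa cit/cit mature DC (0.494%) had 5 or more UMIs of Slc3a2. Median depths of mature DC were 6765 and 5394.5 UMIs, and the part of depth was not tested. With 1 library per genotype the difference between the classes was not tested.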

How the results depend on the processing

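No paired analysis was possible because each genotype was 1 library and no result comes from a test, and for the same reason no replicate could be left out. Of 577 recomputed log2 ratios, 484 stayed within the counting interval first given, 93 did not, and 0 of the ratios past 1.5-fold changed sign. Of 166 recomputed counts, 147 stayed within 1.5 times, which includes counts of 0 that stayed at 0. With a minimum of 50 CPM fewer genes were tested, and counts called higher in H2-Aa cit/cit fell to 4 in resting cDC1, 4 in proliferating cDC1, 1 in resting cDC2 and 0 in mature DC; for cDC1 against all other cells they became 0 higher and 0 lower in WT, and 4 higher and 0 lower in H2-Aa cit/cit. With no minimum they were 6 in resting cDC2, 5 in mature DC and 5 for WT cDC1 against other cells. With a lower fold mark, 2 were higher in mature DC and 3 in WT cDC1 against other cells. The latter count, 1 as first given, was also 3 with scaling by the median ratio and 2 with a cDC1 gate at 3 UMIs, with gates after thinning or with resting cDC2 as the other side, where 0 were lower. Gates after thinning left 15 WT and 16 H2-Aa cit/cit proliferating cDC1, with 2 genes higher. The share of all genes called also depends on these settings and is not given beside these counts. The counts are thus a description and not support. For resting cDC1, log2 ratios ranged from 3.54 to 5.11 for Phgdh, 4.95 to 5.80 for Asns and 0.63 to 5.39 for Slc7a11, the last limited by its 9 WT UMIs.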
